A study of Homo sapiens with 38 samples.

Results

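The background of anti-FLAG CUT&RUN without a DNA binder was described by 3 peak lists, which hold 371 peaks of the 27085 in the 19 lists of the series. The SNAP-NLS list held 295 peaks, the parental list made with the mouse anti-FLAG antibody held 22, and the parental list made with a rabbit anti-FLAG antibody held 54. The peaks were taken as deposited, 1 list for each line and antibody. All cells were U-2 OS, a human osteosarcoma line, of 1 clone whose endogenous Sp1 carried a V5-Halo tag. The SNAP-NLS line held in addition a doxycycline-inducible SNAP tag with a FLAG epitope and a nuclear localization signal at the AAVS1 safe harbor locus, and no DNA-binding domain. The parental line held no FLAG transgene. The study's methods give 1 treatment for its CUT&RUN cells. They received doxycycline at 1 µg/ml for 36 h, together with fluorescent Halo and SNAP ligands, and were sorted to keep cells that expressed the transgene. They were then kept in doxycycline for another 36 h. How the parental line was sorted is not stated, so handling may differ between the lines. Every list was made from 2 labelled replicates joined by IDR (irreproducible discovery rate), so no list has a replicate of its own. The study lists read numbers in a table that was not used here, so the depth behind the lists is not given, which limits how a list length can be read.

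In CUT&RUN an antibody brings a nuclease to its epitope in permeable cells, and the DNA cut free is sequenced. Human centromeres are built on alpha satellite, an array of repeats with a unit long enough to wrap about 1 nucleosome, some of which carry the CENP-B box, the site bound by centromere protein B. The DNA beside centromeres holds other satellites, among them arrays of the pentamer CATTC and arrays of diverged 23 to 26 bp units derived from it. Chromosome ends carry the repeat TTAGGG, and beta satellite has a unit of about 68 bp. Because such arrays repeat, a short read often fits at many positions of the reference.

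The letters under the peaks show these repeats directly. The windows run 100 bp to each side of a summit, on the + strand of hg38. The first 3 hold the kinds of repeat found at the 3 highest peaks of the lists, and the last, chosen after its value was seen, holds a kind found in the parental lists and not in the SNAP-NLS list. Capitals mark the core of the CENP-B box, TTCGNNNNANNCGGG, in the first window and CATTC or its complement GAATG in the second and the next.
The SNAP-NLS peak with the highest value, alpha satellite length, chr10:41466468-41466668: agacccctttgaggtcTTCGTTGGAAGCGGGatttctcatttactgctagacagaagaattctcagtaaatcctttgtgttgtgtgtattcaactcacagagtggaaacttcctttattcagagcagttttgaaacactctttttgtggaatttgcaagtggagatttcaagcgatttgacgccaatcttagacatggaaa
A SNAP-NLS peak with 23 to 26 bp units, chr10:42090694-42090894: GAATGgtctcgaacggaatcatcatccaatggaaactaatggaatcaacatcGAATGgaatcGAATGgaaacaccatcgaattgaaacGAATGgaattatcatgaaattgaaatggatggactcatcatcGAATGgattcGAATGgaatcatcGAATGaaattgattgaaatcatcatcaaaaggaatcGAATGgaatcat
A pentamer array shared by the SNAP-NLS and parental mouse anti-FLAG lists, chr21:10692770-10692970: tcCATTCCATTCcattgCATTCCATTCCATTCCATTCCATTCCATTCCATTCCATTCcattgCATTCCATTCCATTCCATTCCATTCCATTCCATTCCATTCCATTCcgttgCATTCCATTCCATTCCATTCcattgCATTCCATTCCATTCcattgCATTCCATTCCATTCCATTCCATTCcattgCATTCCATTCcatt
A 68 bp repeat of both parental lists, chr18:108079-108279: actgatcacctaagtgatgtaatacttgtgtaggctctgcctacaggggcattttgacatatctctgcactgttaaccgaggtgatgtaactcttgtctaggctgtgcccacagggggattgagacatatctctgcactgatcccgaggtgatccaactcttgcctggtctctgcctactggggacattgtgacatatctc

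Over all peaks of each list, alpha satellite was the most frequent sequence under SNAP-NLS peaks, whereas the parental peaks lay most often in 23 to 26 bp arrays. Each summit was given 1 kind of tandem repeat from how well the sequence within 500 bp matched itself when shifted and from the share of bases in the named motifs within 100 bp. In the SNAP-NLS list 153 of 295 summits, or 51.9% (95% Wilson interval 46.2 to 57.5), had a unit of the alpha satellite length, compared with 3 of 22 (13.6%, 4.75 to 33.3) in the parental mouse anti-FLAG list and 7 of 54 (12.96%, 6.42 to 24.4) in the parental rabbit anti-FLAG list. The 23 to 26 bp units covered 74 SNAP-NLS summits (25.1%), 10 parental mouse anti-FLAG summits (45.5%) and 28 parental rabbit anti-FLAG summits (51.9%). Pentamer-rich sequence accounted for 61 SNAP-NLS summits (20.7%), 2 parental mouse anti-FLAG summits (9.09%) and 6 parental rabbit anti-FLAG summits (11.1%). Telomere repeats were found at 3 of 22 and 5 of 54 parental summits and at 0 of 295 SNAP-NLS summits (Wilson interval up to 1.29%). The 68 bp unit showed the same split, with 3 and 4 parental summits and 0 SNAP-NLS summits. The kinds were defined after the sequences had been seen, so these shares are descriptions without a test, and their intervals cover counting error only.

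**Figure D1:**
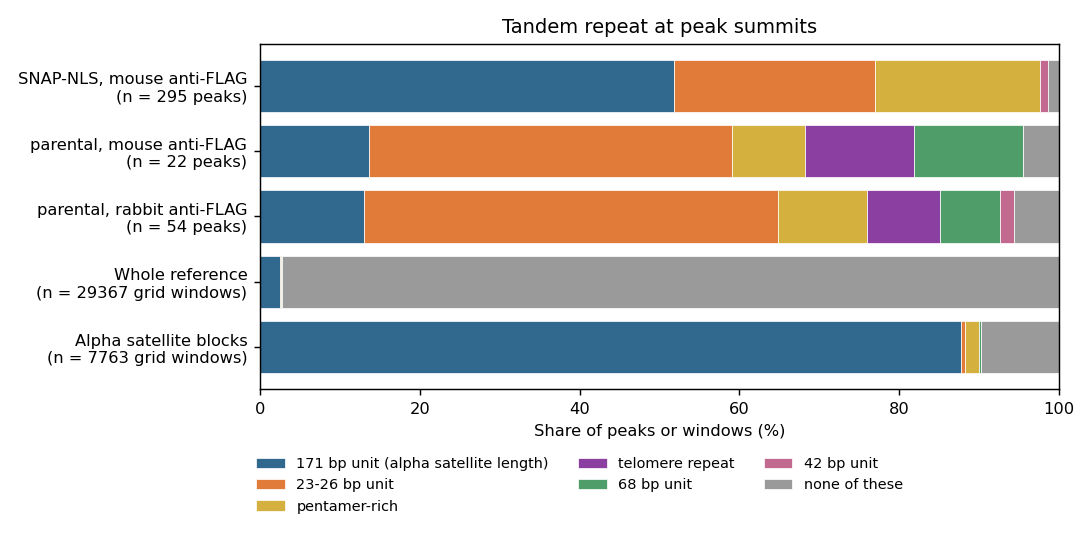
Share of peaks (%) by the tandem repeat at the summit, for the 3 lists and for evenly spaced windows of the reference. The alpha satellite unit fills 51.9% of the SNAP-NLS bar and under 14% of either parental bar, and the telomere and 68 bp kinds appear only in the parental bars among the 3 lists.

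Nearly all peaks of the 3 lists lay in these repeats, although they are rare in the genome. Of 29367 windows placed every 100 kb along chromosomes 1 to 22, X and Y, 97.2% held none of the kinds, 2.54% had an alpha satellite unit and 0.0579% had 23 to 26 bp units. Summits with none of the kinds numbered 4 of 295 in the SNAP-NLS list, 1 of 22 in the parental mouse anti-FLAG list and 3 of 54 in the parental rabbit anti-FLAG list. Peaks within 10 kb of each other were also joined, since copies in 1 array are not separate observations. This left 177 SNAP-NLS, 18 parental mouse anti-FLAG and 28 parental rabbit anti-FLAG regions, of which 130 (73.4%), 3 (16.7%) and 5 (17.9%) had an alpha satellite unit at the highest summit. The 23 to 26 bp kind was found at 15 (8.47%), 6 (33.3%) and 7 (25%) of these regions. With only the 22 highest peaks of each list, the alpha satellite unit was found at 10, 3 and 5 summits. The 23 to 26 bp kind was found at 10, 10 and 9, so the SNAP-NLS list no longer favoured alpha satellite in that setting.

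The CENP-B box core was common among the alpha satellite peaks of the SNAP-NLS list. It was searched on both strands. A core centred within 100 bp of the summit was present at 80 of the 153 SNAP-NLS summits with an alpha satellite unit (52.3%, 44.4 to 60.0), at 2 of 3 parental mouse anti-FLAG summits and at 3 of 7 parental rabbit anti-FLAG summits. Windows with an alpha satellite unit placed every 10 kb inside the alpha satellite blocks of the reference held it in 40.4%. The LacI list, from a line whose FLAG fusion carries a bacterial repressor, had it at 75 of 157 such summits (47.8%, 40.1 to 55.5), an interval that overlaps that of SNAP-NLS. Over all peaks the core was near 27.8% of SNAP-NLS summits, 9.09% of parental mouse anti-FLAG summits and 5.56% of parental rabbit anti-FLAG summits, and near 0.933% of the windows every 100 kb. The pentamer CATTC or GAATG occurred at least once within 100 bp in 84.1%, 68.2% and 75.9% of the 3 lists and in 37.7% of 29373 such windows. The GC box GGGCGG or its complement, the element bound by Sp1, occurred within 100 bp of 0 of 371 summits and in 2.82% of the windows.

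The position of the peaks along the chromosomes differed between the lists. Alpha satellite blocks were located in the reference from its own repeat structure, 1 for each of 24 chromosomes and 82.5 Mb in all, or 2.81% of the sequenced bases. A block joins nearby stretches, so it also holds other repeats. In the SNAP-NLS list 222 of 295 peaks (75.3%, 70.03 to 79.8) touched the block of their chromosome, compared with 6 of 22 parental mouse anti-FLAG peaks (27.3%, 13.2 to 48.2) and 13 of 54 parental rabbit anti-FLAG peaks (24.1%, 14.6 to 36.9). Within 1 Mb of the block lay 230 (77.97%), 7 (31.8%) and 17 (31.5%). The SNAP-NLS share exceeded that of the parental mouse anti-FLAG list by 46.1 percentage points (two-sided Fisher's exact test, adjusted p = 4.3e-05) and that of the parental rabbit anti-FLAG list by 46.5 points (adjusted p = 2.5e-10). The parental lists differed from each other by 0.337 points (Fisher's exact test, adjusted p = 1), with no stable direction. Against LacI, SNAP-NLS was 10.0 points lower (Fisher's exact test, adjusted p = 0.00896). Against wild type Sp1, of which 64 of 5151 peaks lay near a block, it was 76.7 points higher (Fisher's exact test, adjusted p = 4.31e-280). Peaks on sequences without a block, such as unplaced contigs, were counted as away from it. On chromosomes 1 to 22 and X alone the shares within 1 Mb were 88.8% in SNAP-NLS, 33.3% in the parental mouse and 34.7% in the parental rabbit anti-FLAG list. The p-values are adjusted over 20 tests, and they compare peaks of 2 lists, which are not replicate samples and are not independent within an array.

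The difference from the parental lists depended on how an unsequenced stretch was counted. On chromosome 1 the alpha satellite block ends at 125060000 and is followed by a run of 18 Mb of N from 125184588 to 143184587. The SNAP-NLS list had 67 peaks on chromosome 1, of which 52 touched the block, 5 lay between the block and the gap and 9 lay in the first Mb after it. The parental mouse anti-FLAG list had 0 peaks in the block, 1 before the gap and 7 after it. The parental rabbit anti-FLAG list had 0 in the block, 4 before the gap and 19 after it. When the Ns were not counted as distance, an alternative chosen after seeing the data, 84.4% of SNAP-NLS, 68.2% of parental mouse anti-FLAG and 72.2% of parental rabbit anti-FLAG peaks were within 1 Mb, and neither difference from SNAP-NLS passed the test (Fisher's exact test, adjusted p = 0.155 and 0.14). The test for peaks inside the block, which needs no distance, kept both differences (Fisher's exact test, adjusted p = 2.72e-05 and 4.92e-12). Among the 22 highest peaks of each list the shares within 1 Mb were 63.6% in SNAP-NLS, 31.8% and 36.4%, and neither difference passed the test (Fisher's exact test, adjusted p = 0.345 and 0.523).

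**Figure D2:**
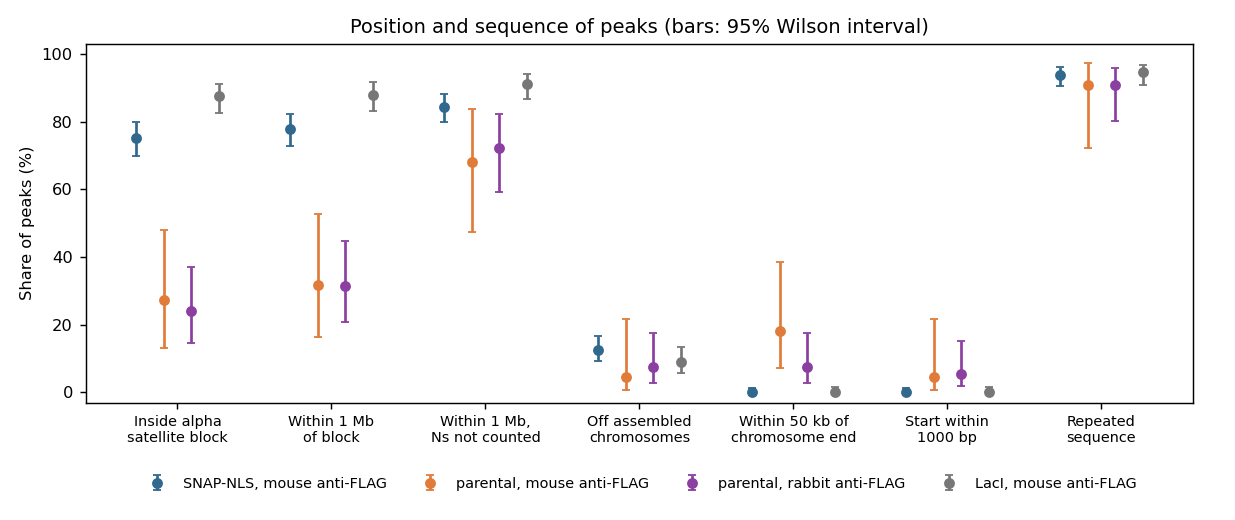
Share of peaks (%) with each property in the 3 lists and in the LacI list, with 95% Wilson intervals. Inside the alpha satellite block SNAP-NLS stands at 75.3% and the parental lists at 27.3% and 24.1%. For the share within 1 Mb the gap narrows when Ns are not counted. A block also holds other repeats, and 149 of the 222 SNAP-NLS peaks inside a block had an alpha satellite unit.

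SNAP-NLS peaks fell on 28 reference sequences, of which 18 were assembled chromosomes. Chromosome 1 with 67 peaks, chromosome 10 with 55 and chromosome 13 with 33 held 52.5% of the list. The repeat under the peaks changed with the chromosome. All 33 peaks on chromosome 13, 9 of 9 on chromosome 12 and 7 of 7 on chromosome 11 had an alpha satellite unit. On chromosome 4, 18 of 21 were pentamer-rich, and on Y all 7 were. Chromosome 10 mixed 23 alpha satellite peaks with 25 of the 23 to 26 bp kind, and chromosome 2 had 11 of 14 of the latter.

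Parental peaks clustered on chromosome 1. It held 8 of 22 parental mouse anti-FLAG peaks (36.4%) and 24 of 54 parental rabbit anti-FLAG peaks (44.4%), of which 8 and 23 were of the 23 to 26 bp kind. Chromosome 17 came second in both, with 3 and 6 peaks, all inside its alpha satellite block. Chromosome ends were a parental feature. Within 50 kb of an end lay 4 of 22 parental mouse anti-FLAG peaks (18.2%), 4 of 54 parental rabbit anti-FLAG peaks (7.41%) and 0 of 295 SNAP-NLS peaks. The parental rabbit anti-FLAG list alone of the 3 had a peak on the mitochondrial genome, which spanned all 16569 bp.

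Sequences outside the assembled chromosomes held 37 of 295 SNAP-NLS peaks (12.5%, 9.24 to 16.8), 1 of 22 parental mouse anti-FLAG peaks (4.55%, 0.807 to 21.8) and 4 of 54 parental rabbit anti-FLAG peaks (7.41%, 2.92 to 17.6). Differences of 7.997 and 5.13 percentage points from SNAP-NLS did not pass the test (Fisher's exact test, adjusted p = 0.758 and 0.624), and the direction was not stable. With peaks joined within 10 kb the SNAP-NLS share was 6.21% and that of the parental rabbit anti-FLAG list 14.3%, a difference of -8.07 points (Fisher's exact test, adjusted p = 0.261). An unlocalized contig of chromosome 1 held 18 of the 37 SNAP-NLS peaks, all of the 23 to 26 bp kind, and 0 parental peaks. A chromosome 17 contig held 6 SNAP-NLS and 2 parental rabbit anti-FLAG peaks, each pentamer-rich.

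In all 3 lists most summits lay in sequence that the reference holds more than once. At least 50% of the 31-base words within 100 bp of the summit occurred at more than 1 position for 277 of 295 SNAP-NLS peaks (93.9%, 90.6 to 96.1), 20 of 22 parental mouse anti-FLAG peaks (90.9%, 72.2 to 97.5) and 49 of 54 parental rabbit anti-FLAG peaks (90.7%, 80.1 to 96.0). In wild type Sp1 352 of 5151 peaks (6.83%) met this rule, and how many windows of the reference meet it was not counted. The parental lists differed from SNAP-NLS by 2.99 and 3.16 points (Fisher's exact test, adjusted p = 0.913 and 0.624). The direction turned when at least 90% of the words had to be repeated, with differences of -8.80 and -1.90 points, and with words of 51 bases, with -7.04 and -0.308 points, and none of the 4 passed the test. Copy number followed the repeat. The median word at SNAP-NLS alpha satellite summits occurred 1316 times, at 23 to 26 bp summits 25.5 times and at pentamer-rich summits 5 times. At the telomere repeats of the parental lists it occurred 925 and 941 times.

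Hardly any region was shared between SNAP-NLS and the parental lists, although the parental lists shared many with each other. Of 295 SNAP-NLS peaks 1 (0.339%, 0.0599 to 1.89) overlapped the parental mouse anti-FLAG list by at least 1 bp, and 0 overlapped the parental rabbit anti-FLAG list (Wilson interval up to 1.29%). No region was present in all 3. The shared region was the pentamer array chr21:10692792-10692992 printed above, with a value of 10.4 in the parental mouse anti-FLAG list, where the value of a peak is the −log10 p of its weaker replicate. Between the parental lists 16 regions overlapped, which is 72.7% (51.8 to 86.8) of the mouse and 29.6% (19.1 to 42.8) of the rabbit anti-FLAG list. The control libraries used to call the peaks are not named. If libraries of 1 of these lists served as control for another, fewer overlaps could be called, and this was not tested.

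Sequence was shared more widely than position when 1 common word was enough, but few words were shared per peak with the parental lists. A 31-base word within 100 bp of the summit was also found at some parental mouse anti-FLAG summit for 115 of 295 SNAP-NLS peaks (38.98%) and at some parental rabbit anti-FLAG summit for 166 (56.3%). Of those 115 peaks 1 was an alpha satellite peak, whereas the 166 included 47. The median SNAP-NLS peak shared 0% of its words with the parental mouse anti-FLAG list and 2.34% with the parental rabbit anti-FLAG list. How often windows away from peaks share a word with these lists was not tested. From the other side, 13 of 22 parental mouse anti-FLAG peaks (59.1%) and 33 of 54 parental rabbit anti-FLAG peaks (61.1%) had a word in the SNAP-NLS windows, and 0 telomere or 68 bp peaks did. The median peak of these lists shared 4.39% (mouse) and 18.1% (rabbit) of its words with SNAP-NLS. With LacI, SNAP-NLS shared far more by both measures, but the LacI list is longer than the parental lists, with 225 peaks. A longer list offers more positions and words to match, and the shares were not adjusted for length. SNAP-NLS had 81 peaks that overlapped LacI (27.5% of SNAP-NLS and 36% of LacI), and a word in common for 285 of 295 peaks. The median SNAP-NLS peak shared 64.9% of its words with LacI.

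Against the remaining lists, SNAP-NLS peaks overlapped the Sp1 activation domain and LacI chimera at 87 of 295 (29.5%), the Sp1 mutant at 56 (18.98%) and wild type Sp1 with anti-FLAG at 20 (6.78%). They met 0 peaks of either parental anti-V5 list. The parental peaks were found most often in the wild type Sp1 list made with rabbit anti-V5, at 33 of 54 parental rabbit anti-FLAG peaks (61.1%) and 9 of 22 parental mouse anti-FLAG peaks (40.9%), while 19 of 295 SNAP-NLS peaks (6.44%) were in that list. In the mouse anti-V5 list of the same line, 0 parental anti-FLAG peaks were found. The other rabbit anti-V5 lists held fewer of the parental rabbit and mouse anti-FLAG peaks. They held 5 and 1 in the parental line, 1 and 1 in the LacI chimera line, and 3 and 3 in the line of the CTCF chimera. The mouse anti-V5 list of the LacI chimera line held 8 and 0. Those of the parental and CTCF chimera lines held 0 of either. Of the SNAP-NLS peaks 144 of 295 (48.8%) were in no other of the 19 lists, compared with 4 of 22 and 11 of 54 parental peaks. The most recurrent SNAP-NLS peak, chr10:41851775-41851934, of the 23 to 26 bp kind, was in 12 others. The lists differ in length from 22 to 5151, so the shares are descriptions.

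**Figure D3:**
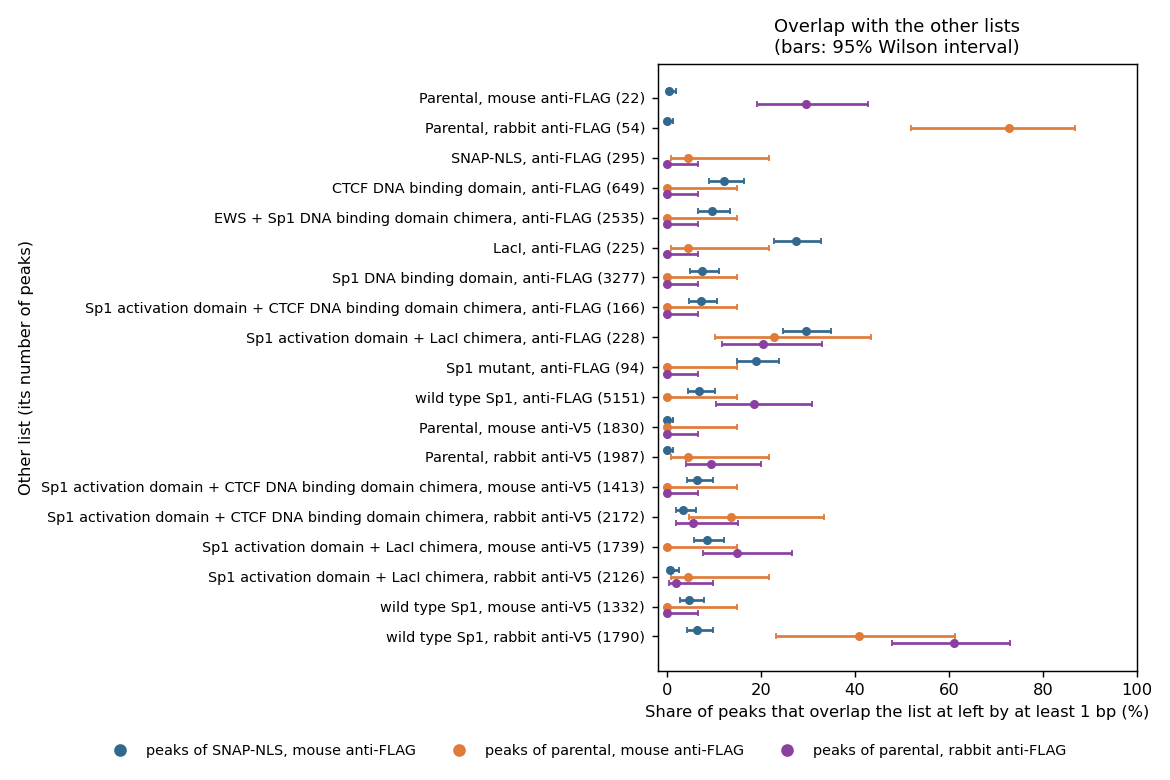
Share of the peaks of each of the 3 lists (%) that overlap every other list by at least 1 bp, with 95% Wilson intervals and the length of the other list in brackets. Parental peaks reach 72.7% in the other parental list and 61.1% in the wild type Sp1 rabbit anti-V5 list, and SNAP-NLS peaks reach 29.5% at most.

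The replicates behind the parental mouse anti-FLAG list were unequal. In the files each peak carries the −log10 p of a first and a second replicate, whose labelled numbers are not given. In SNAP-NLS the first ranged from 5.47 to 19.7 with a median of 8.52 and the second from 6.71 to 33.7 with a median of 11.5, and the second was higher at 246 of 295 peaks (83.4%). In the parental mouse anti-FLAG list the first ranged from 3.08 to 19.9 with a median of 5.15. Its lowest values lay close to the cutoff at which peaks were called. The second ranged from 11.5 to 74.0 with a median of 20.7, and it was higher at 22 of 22. In the parental rabbit anti-FLAG list the medians were 10.4 and 22.4, with 51 of 54 peaks higher in the second. The higher value was 1.37, 4.28 and 1.86 times the lower at the median peak of the 3 lists. Global IDR was at most 0.101% in the parental mouse anti-FLAG list and 0.346% in the parental rabbit anti-FLAG list, and it reached 10.0% in SNAP-NLS. At IDR of at most 0.01, all 22 and 54 parental peaks and 48 SNAP-NLS peaks were left. The lowest IDR in the LacI list was 5.19%, so 0 LacI peaks were left at IDR of at most 0.05. Comparisons with LacI were therefore not made at IDR of at most 0.05 or 0.01. A low IDR did not require a high value in both replicates. The parental mouse anti-FLAG peak at 0.101% had 3.08 in the first and 74.0 in the second.

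The size of the inequality differed between repeats. At the 3 parental mouse anti-FLAG peaks with an alpha satellite unit the second value was 1.03, 1.07 and 2.92 times the first, while at the 3 telomere repeats it was 8.50 to 13.8 times the first. The 10 peaks of the 23 to 26 bp kind ranged from 2.45 to 24.0 times. The parental rabbit anti-FLAG list showed the same order, with a median of 1.18 at 7 alpha satellite peaks, 1.81 at 28 peaks of the 23 to 26 bp kind and 4.52 at 5 telomere repeats. In SNAP-NLS the medians were 1.35 at alpha satellite, 1.63 at the 23 to 26 bp kind and 1.21 at pentamer-rich peaks. What differed between the replicates was not tested.

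**Figure D4:**
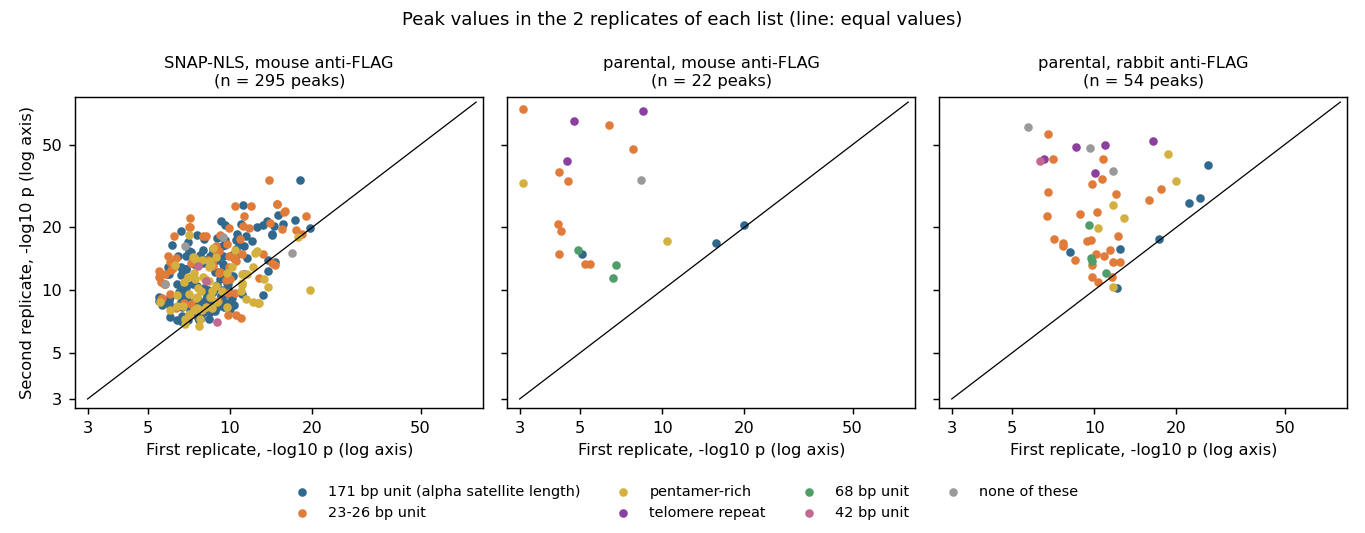
The −log10 p of the first replicate (x) and of the second (y) for each peak, on log axes, coloured by repeat, with a line of equal values. All 22 parental mouse anti-FLAG peaks lie above the line, and the alpha satellite peaks of both parental lists lie nearest to it among their kinds by the median.

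Several regions had their values in both parental lists. The alpha satellite region chr17:26603806-26604010 was the highest parental mouse anti-FLAG peak, with 19.9 and 20.4 in its replicates, and the second highest parental rabbit anti-FLAG peak, with 24.4 and 27.7. The alpha satellite region chr4:50676950-50677131 had 15.7 and 16.8 with the mouse antibody. Its replicates were close in value, as at the region on chromosome 17. The highest parental rabbit anti-FLAG peak, chr10:39967539-39967708, also alpha satellite, had 26.2 and 40.1 and was absent from the other 2 lists, as was the next but one, chr17:25920117-25920281, with 22.3 and 26.3. The highest SNAP-NLS peaks were chr10:41466472-41466809 (19.7 and 20.0, alpha satellite), chr10:42090626-42090942 (18.99 and 22.7, 23 to 26 bp units) and chr2:90381575-90381933 (18.4 and 18.7, 23 to 26 bp units), and each of them was in 7 other lists and in neither parental anti-FLAG list.

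Peaks were narrow in all 3 lists. The median width was 206 bp (range 137 to 879) in SNAP-NLS, 317 bp (182 to 1213) in the parental mouse anti-FLAG list and 289 bp (138 to 16569) in the parental rabbit anti-FLAG list, and 941 bp in wild type Sp1. Within SNAP-NLS the alpha satellite peaks were narrowest, with a median of 173 bp (quartiles 156 and 242), near 1 repeat unit, compared with 279.5 bp (191 and 404.5) at 23 to 26 bp units and 254 bp at pentamer-rich sequence. Alpha satellite peaks were also narrower than those of the 23 to 26 bp kind in the parental lists, at 205 against 434 bp with the mouse antibody and 195 against 289 bp with the rabbit antibody. A deposited parental mouse anti-FLAG peak had the median width of the second replicate's own peak, 317 bp, while the first replicate's own peaks had a median of 182 bp. Replicate summits lay within 50 bp of each other at 86.4%, 72.7% and 87.0% of peaks in SNAP-NLS, parental mouse and parental rabbit anti-FLAG.

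**Figure D5:**
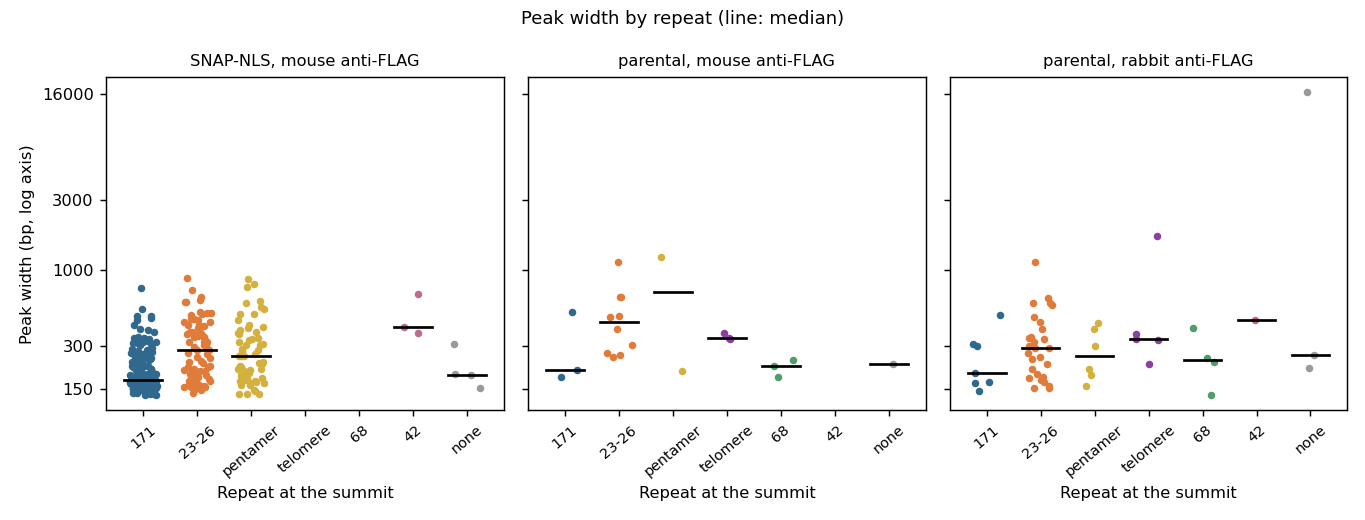
Width of each peak (bp, log axis) by the repeat at its summit, with the median as a line. SNAP-NLS alpha satellite peaks have a median of 173 bp, and the peak of 16569 bp in the parental rabbit anti-FLAG list is the mitochondrial genome.

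Few summits of the 3 lists lay near an annotated transcription start. How often windows of the reference lie near a start was not counted. Sequences outside the assembled chromosomes had no annotated starts or genes. Their 37 SNAP-NLS, 1 parental mouse and 4 parental rabbit anti-FLAG peaks therefore could not count but stayed in the totals. A transcription start lay within 1000 bp of 0 of 295 SNAP-NLS summits (Wilson interval up to 1.29%), 1 of 22 parental mouse anti-FLAG summits (4.55%), 3 of 54 parental rabbit anti-FLAG summits (5.56%) and 4320 of 5151 wild type Sp1 summits (83.9%). SNAP-NLS was 5.56 points lower than the parental rabbit anti-FLAG list (Fisher's exact test, adjusted p = 0.00896), a call that rested on 3 peaks and was lost under 4 alternatives, and 4.55 points lower than the parental mouse anti-FLAG list (Fisher's exact test, adjusted p = 0.154). Both parental lists had a 68 bp repeat on chromosome 18 at 886 and 917 bp from a start of ROCK1P1, annotated as a long noncoding RNA, with values of 4.92 and 9.61. The other parental rabbit anti-FLAG summits near a start belonged to mitochondrial sequence. On chromosome 1 the peak chr1:633890-634146 (9.65) lay in an exon of MTATP6P1, a nuclear pseudogene copied from the mitochondrial genome, and 77.8% of its 31-base words occurred in the mitochondrial reference. The mitochondrial peak itself had its summit 303 bp from MT-TP, a transfer RNA gene. That peak spanned all 16569 bp, and its replicate summits lay 14694 bp apart. Its nearness to a start therefore carries little weight.

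Few summits of the 3 lists lay in a gene, compared with 3308 of 5151 (64.2%) in wild type Sp1. The share of reference windows in a gene was not counted. In SNAP-NLS the summits in a gene were 2 of 295, both in introns of protein-coding genes. Both had none of the kinds of repeat above. The peak in RAB3GAP1, which encodes a subunit of a Rab3 GTPase-activating protein, had a value of 15.04 and was in 3 other lists. The peak in SENP5, which encodes a SUMO protease, had a value of 9.41 and was in none. Their windows, chosen after their values were seen, show a run of TTC triplets and a short stretch of CATTC pentamers, in capitals, which cover 70.1% and 22.4% of the bases.
The SNAP-NLS peak in RAB3GAP1, chr2:135117433-135117633: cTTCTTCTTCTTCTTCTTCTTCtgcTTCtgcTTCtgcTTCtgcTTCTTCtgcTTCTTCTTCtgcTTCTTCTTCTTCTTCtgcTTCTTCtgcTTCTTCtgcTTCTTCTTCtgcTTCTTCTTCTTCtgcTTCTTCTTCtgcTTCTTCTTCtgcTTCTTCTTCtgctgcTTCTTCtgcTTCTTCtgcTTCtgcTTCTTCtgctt
The SNAP-NLS peak in SENP5, chr3:196898724-196898924: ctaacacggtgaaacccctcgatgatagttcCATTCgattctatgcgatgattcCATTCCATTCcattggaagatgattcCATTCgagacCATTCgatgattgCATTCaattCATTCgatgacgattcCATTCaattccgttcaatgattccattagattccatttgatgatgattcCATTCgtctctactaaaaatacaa

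In the parental lists the genes that held a summit were DUX4, a transcription factor gene inside a subtelomeric repeat of chromosome 4, with a value of 6.60 in the mouse anti-FLAG list, and in the rabbit anti-FLAG list ROCK1P1, with 9.70, and MTATP6P1 together with a pseudogene on the opposite strand. The DUX4 peak and the ROCK1P1 peak held a 68 bp unit. One parental region of single-copy sequence was present in both parental lists, chr17:22521282-22521506, inside the alpha satellite block of chromosome 17 and beside MTCYBP13, a pseudogene copied from mitochondrial cytochrome b. Its replicate values were 8.38 and 33.9 with the mouse antibody, and 2.34% of its words occurred more than once in the reference.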

How the data were processed

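CUT&RUN was performed on the 6 samples of the 3 lists, 2 per list, which the study calls biological replicates. According to the study's methods and its submitters' processing notes, reads were trimmed with Cutadapt (2.6), aligned to hg38 with Bowtie2 (2.3.5.1) and deduplicated with SAMtools (1.9). MACS3 (version given as 2.2.7.1) called peaks at p of 0.001 without a local background and against merged control libraries that are not named, and IDR kept peaks at 0.1. No filter on mapping quality is described, so a read that fits many copies of a repeat can be placed at any of them, and the position of a peak within an array is uncertain. The deposited values used are −log10 p of the merged peak and of each replicate, as the authors gave them to IDR, and an IDR score of the authors on a −log10 scale. The merged −log10 p equalled the lower of the replicate values in all 371 peaks.

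Starts, genes and exons came from GENCODE 44, and sequence from the hg38 reference, without its alternate sequences for word counts. Alpha satellite blocks were 10-kb windows whose bases matched at least 40% of those 168 to 174 bp away, joined over 500 kb, with the block of most windows kept. At a summit, kinds were taken in this order. Telomere repeat needed at least 50% of bases in TTAGGG or CCCTAA. Pentamer-rich needed at least 40% in CATTC or GAATG, or 10% with at least 60% identity at a shift of 5 or 10 bp. The rest followed the shift with the highest identity (41 to 43, 66 to 70, 23 to 26 or 46 to 52 with at least 5% pentamer, all at 45% identity, and 165 to 177 or 334 to 348 at 40%), with ties within 3 points going to the kind named first. Overlaps were checked with bedtools, and the scripts were tested on simulated data. The simulated data held no array of 23 to 26 bp units, so recovery of that kind was not tested. Shares were compared with Fisher's exact test and Benjamini-Hochberg adjustment in scipy, at a threshold of 0.05. Genes were named if a start lay within 1000 bp of a summit or if they held it, and regions if present in all 3 lists or among the 3 highest peaks of a list. Other regions named, such as the single-copy region on chromosome 17, the most recurrent SNAP-NLS peak and the region shared with the parental mouse anti-FLAG list, were chosen after their values were seen. Members, lists and tests were chosen with earlier results of these data known. Deposited files of the authors' own comparisons, which hold regions that differed between wild type Sp1 and other constructs, were not used here.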

Additional observations from a re-analysis of the deposited data

How the results depend on the processing

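Of 182 recomputed differences between lists, 12 no longer passed the threshold, 2 newly passed it, 18 changed sign and the others kept their side. Among these others, differences that fell to 0 or rose from 0 without passing were counted as unchanged. Near a transcription start, for example, SNAP-NLS minus the parental mouse anti-FLAG list went from -4.55 points to 0 within 500 bp. Each of the 18 failed the test under both settings. Off the assembled chromosomes, joining turned SNAP-NLS minus parental rabbit anti-FLAG to -8.07 points and minus LacI to -2.01. In repeated sequence, SNAP-NLS minus the parental mouse and rabbit anti-FLAG lists turned to -8.80 and -1.90 at 90% of words and to -7.04 and -0.308 with words of 51 bases, and minus LacI to 4.55 with the 22 highest peaks. The parental mouse minus the rabbit anti-FLAG list turned near the centromere to -4.55 (22 highest), -0.476 (without chromosome 1), -1.36 (chromosomes 1 to 22 and X) and -4.04 (without Ns), near a transcription start to 4.55, 0.476 and 0.68 under the first 3 of these and to 7.07 within 5000 bp, and in repeated sequence to -8.08 (first replicate), -4.55 (22 highest) and -1.36 (chromosomes 1 to 22 and X). With distance counted without Ns, chosen after seeing the data, the SNAP-NLS share near the centromere exceeded the parental mouse and rabbit anti-FLAG lists by 16.2 and 12.2 percentage points and was 6.70 points below LacI (a difference of -6.70), and none of the 3 passed (Fisher's exact test, adjusted p = 0.155, 0.14 and 0.0802). With the 22 highest peaks of each list these differences were 31.8, 27.3 and -22.7 points, the difference off the assembled chromosomes from wild type Sp1 was 9.09 points, and the difference near a transcription start from the parental rabbit anti-FLAG list was 0, none of which passed. Fewer peaks enter that setting. With peaks joined within 10 kb the difference from LacI near the centromere was -3.50 points and did not pass, and the difference from the parental rabbit anti-FLAG list in repeated sequence was 13.3 points and passed (Fisher's exact test, adjusted p = 0.049). The difference near a transcription start from the parental rabbit anti-FLAG list did not pass at IDR of at most 0.01 (-5.56 points), on chromosomes 1 to 22 and X (-4.08 points) or within 500 bp (-3.70 points), while that from the parental mouse anti-FLAG list passed within 5000 bp (-17.5 points, Fisher's exact test, adjusted p = 0.000605). Of 60 recomputed overlap shares 50 stayed within their interval. The region shared by SNAP-NLS and the parental mouse anti-FLAG list was lost (0% of either list) at IDR of at most 0.01 and with the 22 highest peaks. SNAP-NLS in the parental rabbit anti-FLAG list came to 1.69% of joined regions and 1.36% with a gap of up to 1000 bp, and the reverse share to 10.7% and 7.41%. The parental rabbit anti-FLAG share in the mouse list was 42.9% after joining, and the mouse share in the rabbit list was 22.7% with the 22 highest peaks. The first replicate's own peaks gave the parental mouse anti-FLAG list a median width of 182 bp. The cause of these changes was not tested. No paired analysis was possible because each list was made from both of its replicates. Read numbers were not used here, and the libraries used as control and the order of replicates are not given in the sources used here, so list lengths and values cannot be compared between lists as strength of background.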
